A study of Mus musculus with 19 samples.

Results

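The small leucine-rich proteoglycans (SLRPs) and lubricin, 10 genes in all out of 18820 measured, were followed through differentiated 3T3-L1 cells given 1 of 4 fatty acids. The genes were Fmod, Ogn, Dcn, Lum, Bgn, Aspn, Prelp, Omd, Podn and Prg4. Each was represented by 1 probe set, all 10 were kept, and no filter on low values was applied. The group was put together because measured values of Fmod, Ogn and Prg4 in these comparisons had stood out, so the differences of those 3 genes and their intervals are given as a description, with no p. The other 7 genes are reported with their tests. Where calls are counted over all 10 genes, the count is set beside the share of all genes called and serves as a description only.

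3T3-L1 is an established mouse preadipocyte line that turns into fat-storing cells under a hormone cocktail. All groups shared the same differentiation, loss of serum on day 7 and 48 h in medium with 2% BSA and ethanol diluted 1:100, starting on day 8. The control group received nothing further (4 arrays). The treated groups received 250 µM of palmitic acid (PA, 16 carbons, saturated, 4 arrays), palmitoleic acid (PMA, 16 carbons with 1 double bond, 4 arrays, titled PMO on the arrays), stearic acid (SA, 18 carbons, saturated, 4 arrays) or oleic acid (OA, 18 carbons with 1 double bond, 3 arrays). A further OA array was lost at amplification, per the series' design text. Replicates are labelled biological, but the labels do not say whether they came from separate cultures, so p-values measure the spread between these samples. The cells are 1 line, and a well can hold adipocytes and undifferentiated preadipocytes. Fewer cells of a type and less RNA per cell therefore cannot be told apart.

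SLRPs are secreted proteins with a core of leucine-rich repeats, many of them carrying chondroitin, dermatan or keratan sulfate chains. They coat collagen fibrils, set fibril diameter and spacing, and several bind TGF-beta family ligands. In adipose tissue they are made mainly by stromal and preadipocyte cells, and the matrix they belong to is rebuilt as fat cells form. Prg4 encodes lubricin, a mucin-like lubricating glycoprotein that is not an SLRP by structure.

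Fmod and Ogn had the widest differences among the SLRP genes, and the 250 bases before their start sites are shown for that reason. Both sequences come from RefSeq on GRCm38.p6, which held 7 of the 10 genes, the others being Dcn, Lum and Prg4. The Fmod stretch is chr1:134037004-134037253 and the Ogn stretch chr13:49607765-49608014, both on the plus strand, with E-boxes (CANNTG, the core motif of basic helix-loop-helix factors, which reads the same on both strands) in capitals.
Fmod: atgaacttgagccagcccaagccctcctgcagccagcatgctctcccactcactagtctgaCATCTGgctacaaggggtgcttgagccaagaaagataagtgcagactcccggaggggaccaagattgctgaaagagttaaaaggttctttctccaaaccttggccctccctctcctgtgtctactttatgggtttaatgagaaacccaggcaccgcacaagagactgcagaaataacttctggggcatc
Ogn: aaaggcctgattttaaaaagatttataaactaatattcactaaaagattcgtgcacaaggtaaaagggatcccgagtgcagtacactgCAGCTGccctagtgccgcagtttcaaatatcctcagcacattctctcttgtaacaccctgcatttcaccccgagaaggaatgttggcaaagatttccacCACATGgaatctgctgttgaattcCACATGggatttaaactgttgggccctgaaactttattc
The script found 1 E-box before Fmod and 3 before Ogn. E-boxes are common: 66.2% of 32851 mouse promoter windows of the same length held at least 1, as did 5 of the 7 members with an entry (Fmod, Ogn, Bgn, Aspn and Podn). The TATA box letters TATAAA, searched on both strands with no overlap with the E-box, were found for Ogn and Aspn and in 12.4% of all windows. A match is a description of the letters and shows no binding.

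Levels are log2 RMA expression, on which a difference of 1 is a doubling, and members are not ranked by level, since probe sets differ in brightness. The 19 arrays had medians of 5.23 to 5.43. PA replicates 2 and 4 lay lowest on the first principal component, which held 31.2% of the variance, and PMA replicates 1 and 4 lay highest on the second, which held 13.7%. Each call of an SLRP gene is also given without the pair of arrays it rests on. Neither date nor batch is named in the labels, and values within a batch are therefore not given. Markers of cell types were set against the median of all gene means, a coarse reading for the same reason. Of the adipocyte markers 11 of 11 lay above it, with list means over arrays of 11.33 to 11.35 in control, 11.31 to 11.39 in PA, 11.33 to 11.39 in PMA, 11.39 to 11.45 in SA and 11.40 to 11.44 in OA. Of the 11 preadipocyte and fibroblast markers measured, 7 lay above that median too, with list means of 7.70 to 7.76 in control, 7.63 to 7.81 in PA, 7.77 to 7.88 in PMA, 7.73 to 7.76 in SA and 7.74 to 7.80 in OA. Of the macrophage markers 1 of 8 lay above it (Cd68), of the endothelial markers 0 of 7 and of the tendon, cartilage and bone markers 3 of 10.

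Fmod encodes fibromodulin, a keratan sulfate proteoglycan that binds collagen I and TGF-beta. It was highest in OA, followed by PMA and SA, and lowest in control and PA. The control arrays read 6.12, 6.12, 6.04 and 5.95 and the PA arrays 6.07, 5.84, 5.93 and 6.08. Those groups overlapped. The PMA arrays read 6.49, 6.59, 6.54 and 6.80 and the SA arrays 6.40, 6.61, 6.38 and 6.41. The OA arrays read 7.01, 6.72 and 7.02. Every PMA, SA and OA array lay above every control and PA array, while PMA overlapped both SA and OA. Against control, Fmod differed by -0.08 ± 0.08 in PA (SE), 0.55 ± 0.08 in PMA, 0.39 ± 0.08 in SA and 0.86 ± 0.09 in OA, the last a fold of 1.81. These 4 differences share the control arrays. Without PMA replicates 1 and 4 the PMA difference was 0.51.

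Ogn encodes osteoglycin, also called mimecan, a keratan sulfate proteoglycan of bone, vessel wall and connective tissue. Like Fmod it was highest in OA, and unlike Fmod its PA arrays lay wholly below control. In control it read 9.50, 9.58, 9.39 and 9.26 and in PA 9.08, 8.91, 9.21 and 9.11, with no overlap between them. In PMA it read 9.62, 9.86, 9.61 and 9.67 and in SA 9.57, 9.69, 9.67 and 9.44. In OA it read 9.871, 10.097 and 10.005. All OA arrays lay above all others, although the lowest of them was only just above the highest PMA array, and SA overlapped both control and PMA. The differences from control were -0.36 ± 0.08 in PA, 0.26 ± 0.08 in PMA, 0.16 ± 0.08 in SA and 0.56 ± 0.09 in OA, the last a fold of 1.47. Without PA replicates 2 and 4 the difference between PA and control was -0.29, and that of Fmod was -0.06. Without PMA replicates 1 and 4 the PMA difference of Ogn was 0.31.

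**Figure D1:**
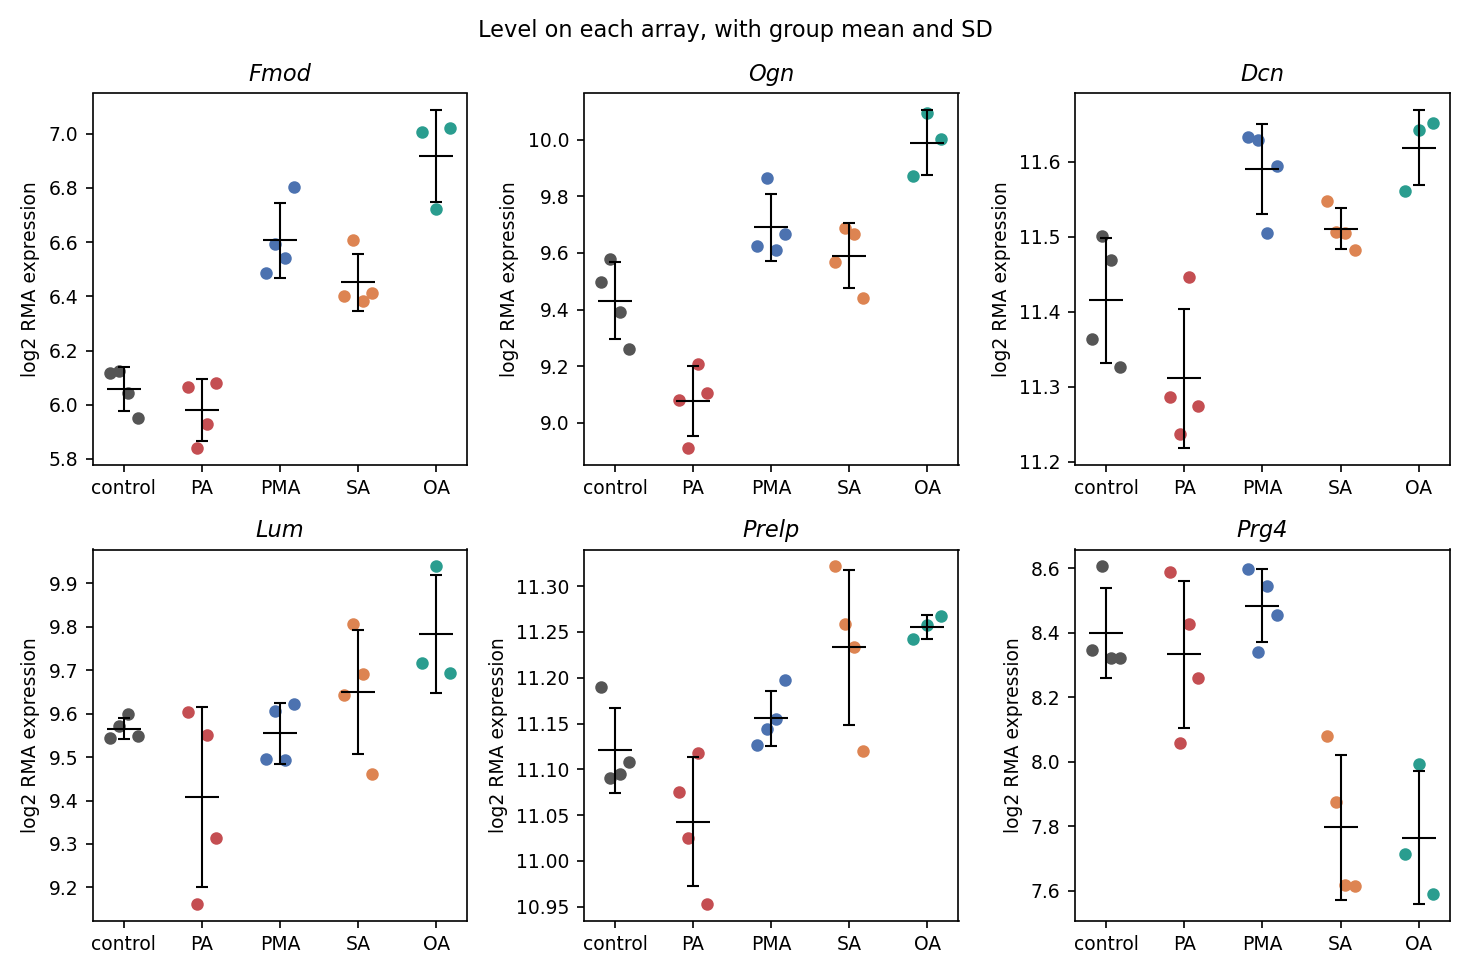
Level of 6 genes on each array (log2 RMA expression, points) by group, with group mean (long tick) and SD (bars). Fmod and Ogn are highest in OA, at means of 6.92 and 9.99, whereas Prg4 is low in SA and OA, at means of 7.80 and 7.76.

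Prg4 was low with the 18-carbon acids, SA and OA, and near control with the 16-carbon acids. It read 8.34, 8.61, 8.32 and 8.32 in control, 8.59, 8.06, 8.42 and 8.26 in PA and 8.60, 8.34, 8.54 and 8.45 in PMA. Those 3 groups overlapped. It read 8.08, 7.88, 7.62 and 7.61 in SA and 7.71, 7.99 and 7.59 in OA, in both cases below every control array. The differences from control were -0.07 ± 0.11 in PA, 0.08 ± 0.11 in PMA, -0.60 ± 0.11 in SA and -0.63 ± 0.12 in OA. PA replicate 2, at 8.06, lay just below the highest SA array, so PA and SA overlapped at that single array. Without PA replicates 2 and 4 the PA difference from control was 0.11, of the opposite sign. Every SA and OA array also had a higher mean of the adipocyte marker list than every control array (11.39 to 11.45 against 11.33 to 11.35), and its part in the Prg4 difference was not tested.

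Dcn encodes decorin, a class I SLRP with 1 chondroitin or dermatan sulfate chain that binds collagen and TGF-beta. Its group means were in the same order as those of Fmod and Ogn, within a narrower range. The control arrays read 11.36, 11.50, 11.47 and 11.33 and the PA arrays 11.29, 11.24, 11.45 and 11.27, which overlapped. The PMA arrays read 11.63, 11.63, 11.51 and 11.59, the SA arrays 11.55, 11.51, 11.51 and 11.48 and the OA arrays 11.56, 11.64 and 11.65. PMA and OA lay wholly above control and PA, SA overlapped control and PMA, and PMA and OA overlapped. Against control the difference was 0.18 ± 0.05 in PMA and 0.20 ± 0.06 in OA, and neither passed (limma, adjusted p = 0.142 and 0.119). The OA call was gained in 3 of 29 alternatives (adjusted p from 0.0145 to 0.376 over all of them), among them cyclic loess at 0.0370, and the PMA call in 1 of 29, at 0.0489 with a trended robust spread (0.0489 to 0.841 over all of them).

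Lum encodes lumican, a keratan sulfate SLRP known from the cornea, and Prelp a collagen-binding SLRP with a basic end. Lum read 9.54, 9.57, 9.60 and 9.55 in control, 9.60, 9.16, 9.55 and 9.31 in PA and 9.50, 9.61, 9.49 and 9.62 in PMA. It read 9.64, 9.81, 9.69 and 9.46 in SA and 9.72, 9.94 and 9.69 in OA. The 2 low PA arrays were replicates 2 and 4, and every OA array lay above every control, PA and PMA array. Prelp read 11.19, 11.09, 11.09 and 11.11 in control, 11.08, 11.03, 11.12 and 10.95 in PA and 11.13, 11.14, 11.15 and 11.20 in PMA. It read 11.32, 11.26, 11.23 and 11.12 in SA and 11.24, 11.26 and 11.27 in OA. Its OA arrays lay close together and above all control, PA and PMA arrays. Against control in OA, Lum differed by 0.22 ± 0.09 and Prelp by 0.13 ± 0.05, without passing (limma, adjusted p = 0.336 and 0.312).

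The other 4 genes passed in none of the 12 comparisons made. Bgn, the class I relative of decorin, had group means of 12.28 (PA) to 12.38 (control). Aspn, asporin, a class I SLRP without a glycosaminoglycan chain, had group means of 11.52 (PA) to 11.73 (OA), a range as wide as that of Prelp (0.22 and 0.21). Podn, podocan, ran from 7.40 (control) to 7.51 (SA). Omd, osteomodulin, a keratan sulfate SLRP of bone, ran from 3.73 (OA) to 3.85 (SA) and was dim, with a mean at the 11.7th percentile of gene means.

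**Figure D2:**
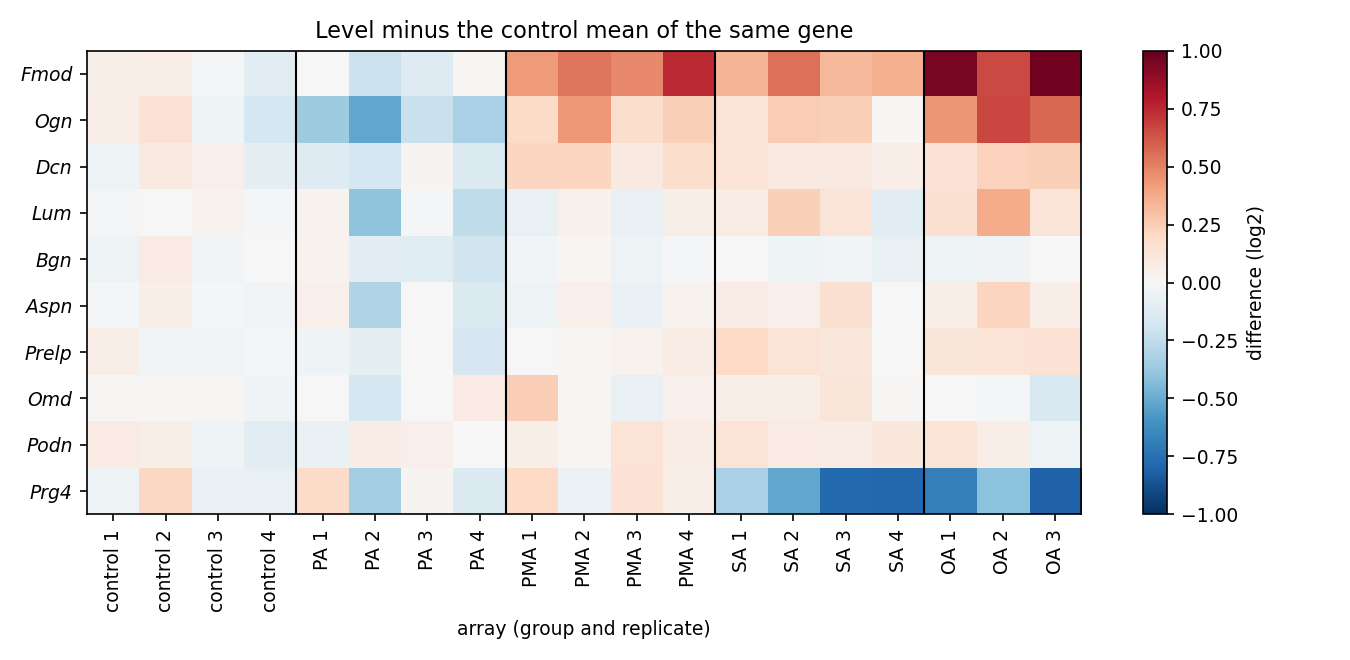
Level of each gene on each of 19 arrays minus that gene's control mean (colour, log2), with vertical lines between groups. Fmod is red in every PMA, SA and OA array, Ogn is blue in every PA array and Prg4 is blue in every SA and OA array, while PA replicate 2 is the lowest PA array for Fmod, Ogn, Dcn, Lum, Aspn and Prg4.

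Each acid was then set against control across all genes. With PA, 0 of the 10 genes passed, beside 0 percent of all genes. At an unadjusted p under 0.05, 2900 genes differed between PA and control in the same limma fit. Without PA replicate 1, 510 genes passed. Ogn was among them in that fit and in no other, and since it was chosen on its values nothing is read from that. With PMA 1 member passed (Fmod) beside 0.266% of all genes, with SA 2 (Fmod and Prg4) beside 0.165%, and with OA 3 (Fmod, Ogn and Prg4) beside 0.861%. Nothing is read from these counts, since the genes that passed were chosen on these contrasts. Of the 7 tested genes, 0 passed against control with any of the 4 acids. Their median difference was -0.10 in PA, 0.04 in PMA, 0.08 in SA and 0.12 in OA, beside 0.03, 0.06, 0.02 and 0.02 for all genes.

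**Figure D3:**
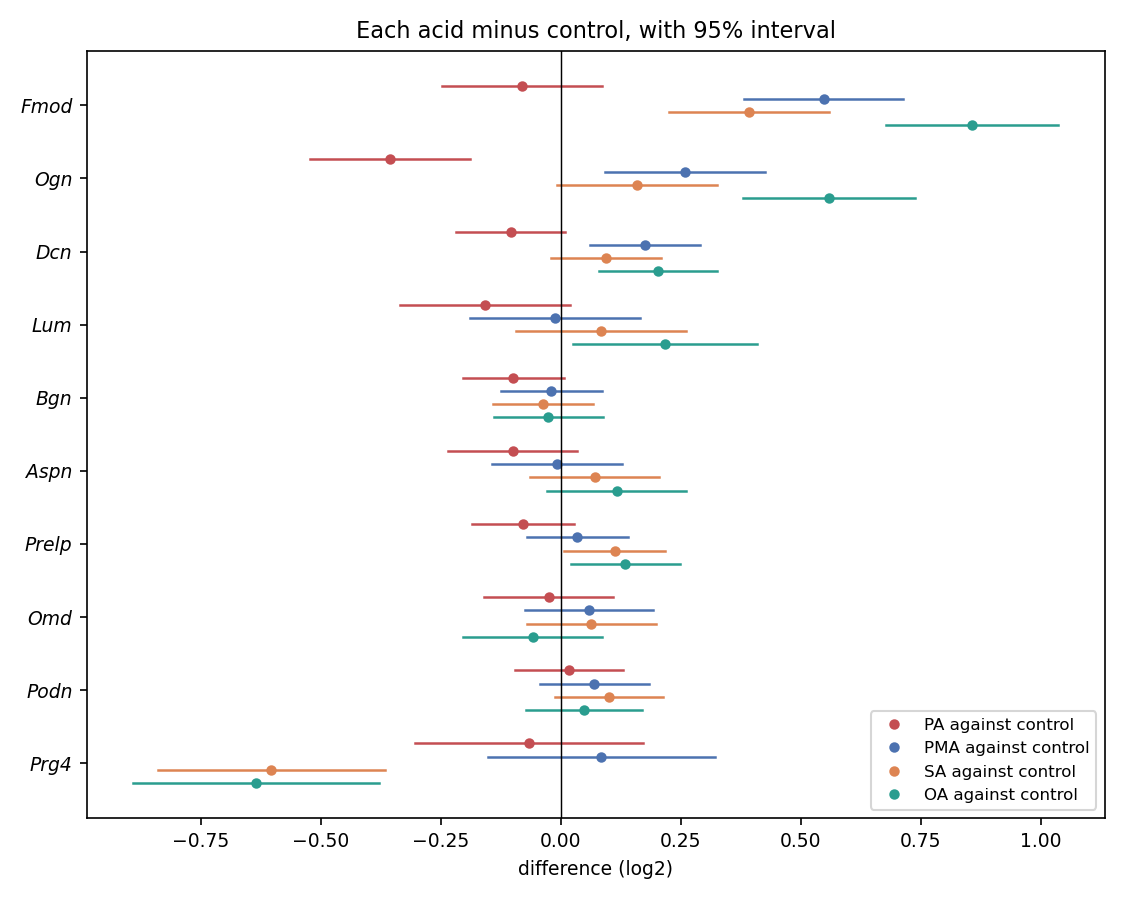
Difference of each acid from control for each gene (log2, points) with the 95% interval of the limma fit (lines). Fmod lies at 0.55 in PMA, 0.39 in SA and 0.86 in OA, Ogn at -0.36 in PA and 0.56 in OA and Prg4 at -0.60 in SA and -0.63 in OA, and the other genes lie between -0.16 and 0.22.

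The 4 acids form pairs at the same dose and time that differ in chain length, in the double bond or in both, and all 6 pairs were compared. Between PMA and PA, which differ by the double bond at 16 carbons, Fmod was higher in PMA by 0.63 (95% interval 0.46 to 0.79) and Ogn by 0.62 (0.45 to 0.78). Prg4 differed by 0.15 (-0.09 to 0.39). Between OA and SA, the same change at 18 carbons, the difference was 0.46 for Fmod (0.29 to 0.64), 0.40 for Ogn (0.22 to 0.58) and -0.03 for Prg4 (-0.29 to 0.22). The OA arrays of Fmod and Ogn lay above every SA array, while the groups overlapped for Prg4.

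Chain length was compared in the same way. From PA to SA, both saturated, Fmod was higher by 0.47 (0.31 to 0.64) and Ogn by 0.52 (0.35 to 0.68), and Prg4 was lower, at -0.54 (-0.77 to -0.30). From PMA to OA, both monounsaturated, Fmod was higher by 0.31 (0.13 to 0.49) and Ogn by 0.30 (0.12 to 0.48), and Prg4 stood at -0.72 (-0.97 to -0.46). By group means, Fmod and Ogn were thus higher with the double bond and with the longer chain, and Prg4 lower with the longer chain. PMA and OA overlapped for Fmod, however, and PA and SA for Prg4. The pattern is a description only, since these genes were chosen on their values. The acids that differ in both, PA and OA, were 0.94 apart for Fmod (0.76 to 1.12), 0.91 for Ogn (0.73 to 1.09) and -0.57 for Prg4 (OA minus PA, -0.82 to -0.31). PMA and SA differed by 0.16 for Fmod (-0.01 to 0.32) and 0.10 for Ogn (-0.07 to 0.27), and by 0.69 for Prg4 (0.45 to 0.92, higher in PMA).

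**Figure D4:**
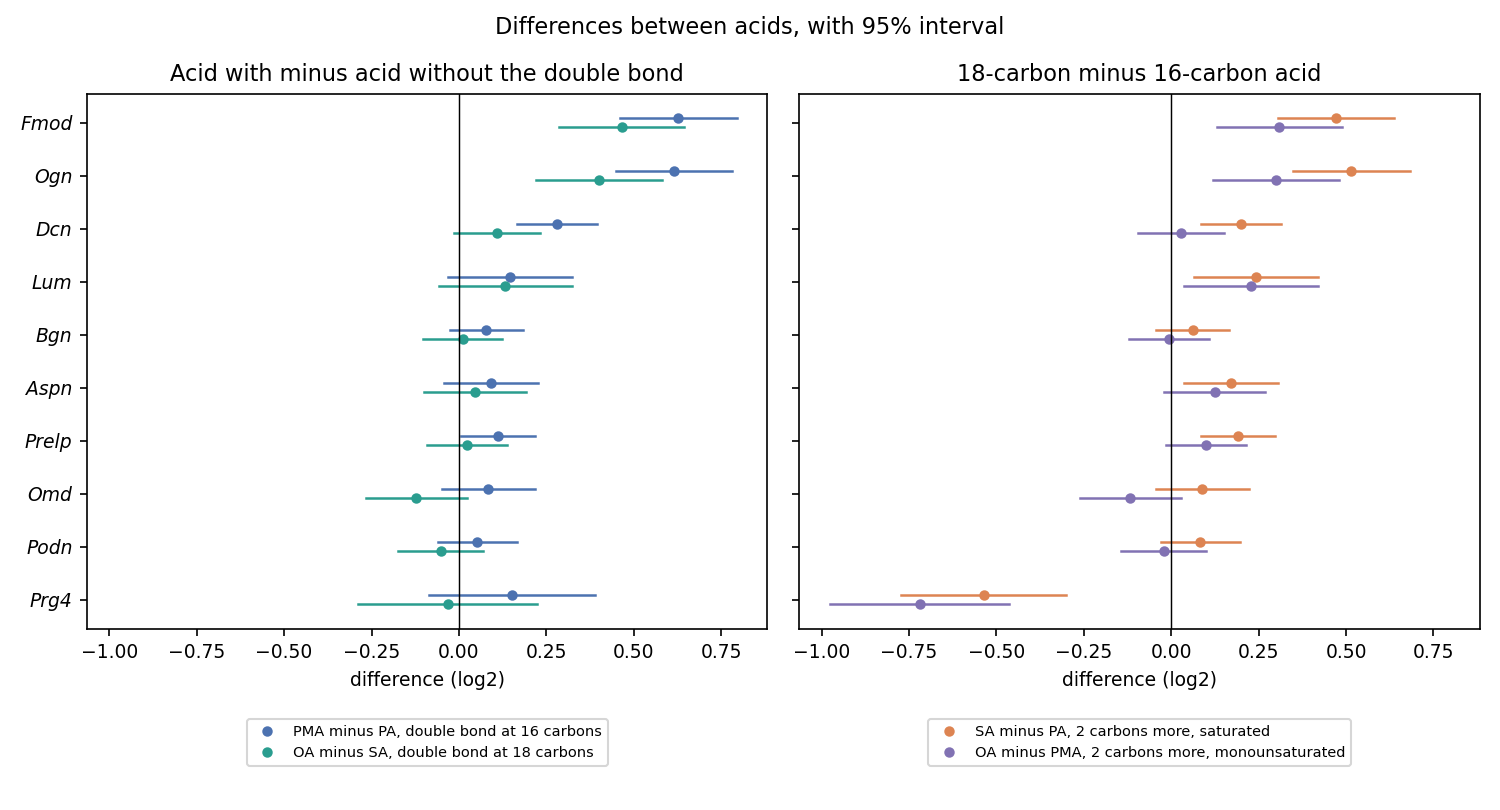
Differences between acids for each gene (log2, points) with 95% intervals (lines): the acid with the double bond minus the one without at each chain length (left) and the 18-carbon minus the 16-carbon acid (right). Fmod and Ogn lie to the right of 0 in both panels, at 0.30 to 0.63. Prg4 lies to the left in the chain length panel, at -0.54 and -0.72. In the double bond panel it lies at 0.15 and -0.03, with intervals on both sides of 0. The intervals of these chosen genes are a description.

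Among the 7 tested genes, decorin separated the acids most often. Dcn was lower in PA than in PMA, at -0.28 ± 0.05 (limma, adjusted p = 0.0149), and lower in PA than in OA, at -0.31 ± 0.06 (adjusted p = 0.0114). Every PMA and OA array lay above every PA array. Averaged over both chain lengths, Dcn was higher with the monounsaturated acids by 0.19 ± 0.04 (limma, adjusted p = 0.0254). With p-values adjusted over all genes and the 6 pairs together, both Dcn pairs still passed. The pair with PMA failed without PA replicate 4 (0.0682) and without PMA replicate 1 (0.0542), and the pair with OA failed without OA replicate 3 (0.0857). Over 30 alternatives each, the adjusted p ran from 9.48e-04 to 0.240 and from 6.34e-04 to 0.179. The average over chain lengths failed in 8 of 19 fits that left out 1 array, without PA 4, PMA 1, 2 or 4, SA 3 or 4, or OA 2 or 3, at 0.0514 to 0.104. Without PA replicates 2 and 4 all 3 failed, with Dcn at -0.22 against PMA (0.240), -0.25 against OA (0.142) and 0.17 for the average (0.127). Without PMA replicates 1 and 4 Dcn stood at -0.26 between PA and PMA (0.190) and at 0.18 for the average (0.137), and neither passed.

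Lumican and Prelp were also lower in PA than in OA, at -0.38 ± 0.09 (limma, adjusted p = 0.0381) and -0.21 ± 0.05 (adjusted p = 0.0474). Every OA array lay above every PA array for both. These calls were fragile. That of Lum failed without control 3 (0.0507), PA 2 (0.107), PA 4 (0.114), OA 1 (0.0719), OA 2 (0.148) or OA 3 (0.102). That of Prelp failed in 14 of 19 such fits, at 0.0533 to 0.166, namely without any control or OA array, PA 2 or 4, PMA 2, 3 or 4, or SA 2 or 3. Adjusted over the 6 pairs together, Lum stood at 0.0881 and Prelp at 0.105. Without PA replicates 2 and 4, Lum stood at -0.21 (0.485) and Prelp at -0.16 (0.436), and without PMA replicates 1 and 4, which enter only through the shared spread, at 0.0522 and 0.0551. Aspn, at -0.22 ± 0.07, did not pass (limma, adjusted p = 0.0981) but did without PA replicate 1 (0.0289) and with a trended robust spread (0.0371).

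Counted over all 10 genes, 6 passed between PA and OA beside 1.92% of all genes, and 3 between PA and PMA (Fmod, Ogn, Dcn) beside 0.962%. Between PA and SA 2 passed (Fmod, Ogn) beside 0.143%, between SA and PMA 1 (Prg4) beside 0.244%, between PMA and OA 1 (Prg4) beside 0.0531% and between SA and OA 0 beside 0.0319%, where 451 genes had an unadjusted p under 0.05 in limma. The monounsaturated against the saturated acids gave 3 (Fmod, Ogn, Dcn) beside 0.553%. Most of these are the genes that were chosen for their differences, so the counts are no evidence about the family. The shares over all genes also turn on single arrays, since leaving out 1 array moved the number called from 49 (without PA replicate 4) to 638 (without PA replicate 3) between PA and PMA, and from 9 (without SA replicate 2) to 499 (without PA replicate 1) between PA and SA. The 7 tested genes gave 3 calls between PA and OA, 1 between PA and PMA and 1 for the monounsaturated acids. Their median for PA minus OA was -0.21, beside 0.02 over all genes, and for PA minus PMA -0.09 beside -0.03.

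Whether the double bond made a different difference at 16 than at 18 carbons was tested by the interaction term. It passed for 0 of the 10 genes, beside 0.00531% of all genes, and 986 genes had an unadjusted p under 0.05 in limma. Dcn had an interaction of -0.17 ± 0.08 (limma, adjusted p = 0.929). For Fmod it was -0.16 (95% interval -0.41 to 0.08) and for Ogn -0.22 (-0.46 to 0.03), given as a description.

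Over the 19 arrays the levels of the genes moved together to different degrees, given here as a description over arrays that share groups. Fmod and Ogn had a Pearson r of 0.87, which was 0.22 after the group means were taken out. Ogn and Dcn had 0.91, and 0.64 within groups. Lum and Aspn had 0.92, and 0.86 within groups, and 0.88 over all groups without PA replicate 2. Fmod and Prg4 had -0.45, and -0.01 within groups. Fmod thus followed Ogn and Dcn between groups, whereas Lum and Aspn also moved together among replicates of 1 group.

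The genes whose pattern was most like Fmod over the 19 arrays were Kif26b (r = 0.91), Bptf (0.90), Pde4b (0.89), Pkp4 (0.89) and P4ha3 (0.89), the last a collagen prolyl hydroxylase subunit, and the most opposed were Znfx1 (-0.91), the immediate early transcription factor gene Egr1 (-0.90) and Hint1 (-0.86). Znfx1 had 2 probe sets, of which only the brighter stands for it here, while Egr1 had 1. Egr1 had means of 8.34 in control, 8.40 in PA, 7.77 in PMA, 7.74 in SA and 7.60 in OA. For Ogn they were Pi15 (0.93), Postn (0.92), which encodes the matrix protein periostin, Dcn (0.91), Ebf1 (0.89) and Pcdh18 (0.89), opposite Hspb1 (-0.90), Ptprn (-0.86) and Rab24 (-0.86). For Prg4 they were Mmp11 (0.89), Itih4 (0.87), Nqo1 (0.84), Stip1 (0.83) and Atp2a3 (0.82), opposite B3galt2 (-0.87), Pck1 (-0.81) and Pnpla3 (-0.81). Within groups r was 0.27 to 0.67 and only -0.24 to -0.17 for the genes named for Fmod. It was 0.30 to 0.68 and -0.61 to -0.58 for those of Ogn. For those of Prg4 it was 0.33 to 0.74 and -0.47 to -0.085.

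In the RefSeq gene order Prelp and Fmod are neighbours on chromosome 1, Aspn, Omd and Ogn follow each other on chromosome 13, and Dcn and Lum are neighbours on chromosome 10. The difference between OA and PA was 0.31 ± 0.06 for Dcn and 0.38 ± 0.09 for Lum, alike within their errors. That likeness is of this comparison only. In PMA against control Dcn stood at 0.18 ± 0.05 and Lum at -0.01 ± 0.09. Within the chromosome 13 run the difference between OA and PA was 0.22 for Aspn, -0.03 for Omd and 0.91 for Ogn. The outer neighbours Ecm2 and Nol8 had 0.16 and 0.20 without passing (limma, adjusted p = 0.281 and 0.160). Next to Fmod, Prelp had 0.21 and Btg2 -0.03.

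Other genes of the same biology were read from lists of related genes, whose counts stand beside the shares of all genes given above (0.266% for PMA, 0.165% for SA and 0.861% for OA against control, 0.962% between PA and PMA and 1.92% between PA and OA). Of 9 further SLRPs and near relatives measured, 0 passed in any of the 12 comparisons, and of 22 genes for making chondroitin and dermatan sulfate chains 0 passed. Of 8 keratan sulfate genes 1 passed, Chst2, a sulfotransferase of the keratan sulfate pathway. It was lower in PA than in PMA by 0.42 (limma, adjusted p = 0.0113) and in PA than in OA by 0.35 (0.0392), failing in 1 and in 6 of the 19 fits that left out 1 array, at up to 0.0564 (without PA replicate 4) and 0.138 (without OA replicate 2).

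Of 15 fibril partners, 2 passed in PMA, both collagen genes: Col1a1 rose by 0.26 and Col6a1 by 0.20 (limma, adjusted p = 0.0463 each), and these failed in 14 and 16 of the 19 fits, at up to 0.172 and 0.165 without control replicate 4. In OA, Col6a1 rose by 0.20 (0.0423, failing in 14, at up to 0.247 without OA replicate 3) and Lox, the collagen crosslinking enzyme, by 0.32 (0.0259, failing in 6, at up to 0.0960 without OA replicate 1). Lox was lower in PA than in OA by 0.36 (limma, adjusted p = 0.00920), and that call passed in all 19 fits, at up to 0.0458, but failed with only the arrays compared (0.165) and without PA replicates 2 and 4 (0.0882).

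Among 20 ligands and receptors that SLRPs bind, Egfr, a receptor bound by decorin, was lower in PA than in PMA by 0.23 (limma, adjusted p = 0.0366, failing in 6 fits) and in PA than in OA by 0.27 (0.0217, failing in 4). Tgfb3 was lower in PA than in OA by 0.25 (0.0447, failing in 12). The highest adjusted p among those fits was 0.121 without PMA replicate 4 and 0.106 without OA replicate 3 for Egfr, and 0.134 without OA replicate 1 for Tgfb3. Of 9 TGF-beta target genes, Postn was lower in PA than in PMA by 0.24 (limma, adjusted p = 0.0331, failing in 6) and in PA than in OA by 0.30 (0.0114, failing in 2), while Acta2 and Pmepa1 rose in SA by 0.36 and 0.27 (0.0389 and 0.0375, each failing in 11). The highest values were 0.138 without PA replicate 4 and 0.0765 without OA replicate 3 for Postn, and 0.169 without control replicate 4 for both Acta2 and Pmepa1. The median of the TGF-beta targets was 0.06 for PA minus PMA, opposite to Postn, -0.02 for PA minus OA and 0.09 for SA minus control. Over all genes the medians were -0.03, 0.02 and 0.02. Of 13 processing proteases and helpers, Pcolce, an enhancer of procollagen processing, was lower in PA than in PMA by 0.22 and in PA than in OA by 0.24 (limma, adjusted p = 0.0475 and 0.0375, failing in 16 and 7). Of 23 other proteoglycan and hyaluronan genes, the glypican Gpc4 rose in OA by 0.26 (0.0411, failing in 12) and was lower in PA than in OA by 0.28 (limma, adjusted p = 0.0220, failing in 4). Here the highest values were 0.145 without PA replicate 4 and 0.139 without OA replicate 3 for Pcolce, and 0.209 and 0.118 for Gpc4, both without OA replicate 3. Gpc4 was also lower in PA than in PMA by 0.23 (0.0446, failing in 14, at up to 0.143 without PA replicate 4). The median of its list was 0.04 for PA minus OA, opposite to Gpc4, and -0.01 for PA minus PMA, beside 0.02 and -0.03 over all genes. Averaged over both chain lengths, Chst2, Egfr, Postn and Gpc4 were higher with the monounsaturated acids by 0.30, 0.18, 0.18 and 0.19 (limma, adjusted p = 0.0145, 0.0278, 0.0340 and 0.0291). Leaving out 1 array ended that call in 0 fits for Chst2 (2 other settings ended it, at 0.0595 with every probe set tested and 0.0553 without PMA replicates 1 and 4) and in 8 for each of Egfr, Postn and Gpc4, at up to 0.104, 0.117 and 0.118 without OA replicate 3.

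Most list calls that involve PA did not hold without the arrays that stood apart. Without PA replicates 2 and 4, which leaves 2 PA arrays, 8 of the 9 list genes called between PA and OA and 5 of the 6 called between PA and PMA no longer passed. Mkx and Chst2, respectively, still passed. Against OA the differences were then -0.20 for Egfr, -0.25 for Postn, -0.15 for Pcolce, -0.26 for Gpc4, -0.27 for Lox, -0.18 for Tgfb3, -0.38 for Chst2 and -0.40 for Fap (limma, adjusted p from 0.0831 to 0.443). Against PMA they were -0.17 for Egfr, -0.18 for Postn, -0.14 for Pcolce, -0.21 for Gpc4 and -0.39 for Fap (0.0909 to 0.500). Without PMA replicates 1 and 4, 6 of 6 calls between PA and PMA were lost (0.0964 to 0.313), and so were Col1a1 (0.589) and Col6a1 (0.518) in PMA against control. With only the arrays compared in the fit, 9 of 9 calls between PA and OA were lost (0.109 to 0.272) and 5 of 6 between PA and PMA.

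Markers of the other cell states moved in places beside these genes. The preadipocyte and fibroblast marker Fap was lower in PA than in PMA by 0.37 (limma, adjusted p = 0.0149) and in PA than in OA by 0.38 (0.0174). It was the only 1 of 11 such markers that passed in these comparisons. Fap was dim, with a mean at the 30.8th percentile of gene means, and was not tested with dim genes left out. The tendon marker Mkx was lower in PA than in OA by 0.28 (0.0282), 1 of 10 markers of tendon, cartilage and bone, whose median for PA minus OA was 0.04 beside 0.02 over all genes. Leaving out 1 array ended the Fap calls in 2 and 3 of 19 fits, at up to 0.0575 without PA replicate 4 and 0.102 without OA replicate 3, and the Mkx call in 4, at up to 0.108 without OA replicate 3. The list means of preadipocyte markers overlapped between PA and OA. In PMA they lay wholly above control and SA but overlapped PA. The list median was -0.15 for PA minus PMA beside -0.03 over all genes, in the comparison where Fmod, Ogn and Dcn were also lower in PA. Between SA and PMA, where Prg4 was lower in SA, the macrophage marker Cd68 was lower in SA by 0.58 (limma, adjusted p = 0.00808, passing in all 19 fits but not without PMA replicates 1 and 4, at 0.317) and the adipocyte marker Lep higher by 0.34 (0.0143, failing in 2, at up to 0.0711 without SA replicate 2, and also not without PMA replicates 1 and 4, at 0.155). Cd68 was 1 of 8 macrophage markers and the only 1 that passed, and Lep the only 1 of 11 adipocyte markers. The list medians for SA minus PMA were -0.09 and 0.03, beside -0.04 over all genes. The macrophage list means were 4.58 to 4.65 in SA and 4.70 to 4.82 in PMA. The part of these markers in the differences of the SLRP genes and Prg4 was not tested.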

How the data were processed

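RNA from 19 samples of 3T3-L1 cells in 5 groups was measured on Affymetrix Mouse Gene 1.1 ST arrays. The deposited values are log2 expression per probe set, made by the authors with RMA (R 2.15.0, affy 1.34.0, per the submitters' processing notes), so background correction and normalization were taken as given. The table held 35556 probe sets, of which 21218 had 1 gene symbol. The brightest probe set by mean over all arrays stood for each of 18820 genes, with no low filter.

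The 5 group means were estimated together from the 19 arrays by lmFit and eBayes (limma 3.58.1, R 4.3.3). Of 12 contrasts, p-values were two-sided and adjusted by Benjamini-Hochberg within each contrast over all genes, with a threshold of 0.05. Errors are SE and intervals 95%. The number of arrays limits the precision. The fit was tested on simulated data. The members, gene lists and tests were chosen with earlier results of these data known. Named genes were all members, list genes that passed, chromosomal neighbours, and the 5 most like and 3 most unlike Fmod, Ogn and Prg4 by correlation. Alternatives covered probe set choice, dim genes, loess, spread, weights, a replicate block, the arrays used and each array left out.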

Additional observations from a re-analysis of the deposited data

Results flagged for a closer look

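Of 40 sets of 4 arrays examined gene by gene, 4 held 1 array far from the other arrays of its group, by Dixon's test, which chance flags in about 1 set in 20. They were Fmod in SA replicate 2 (6.61), Aspn in control replicate 2 (11.68), Omd in control replicate 4 (3.75) and Prg4 in control replicate 2 (8.61).

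Responses differed between acids by a test of the difference itself for Dcn between PA and PMA (-0.28) and between PA and OA (-0.31), for Lum between PA and OA (-0.38) and for Prelp between PA and OA (-0.21). None of these calls held throughout. Of 30 alternatives each, the 2 Dcn calls failed in 6 and 3, that of Lum in 12 and that of Prelp in 20. Ogn was set apart because every PA array lay below the control mean and every array of the other acid above it, with a difference of -0.62 between PA and PMA, -0.52 between PA and SA and -0.91 between PA and OA. For Ogn the difference was not tested, since its values led to its choice.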

How the results depend on the processing

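The differences of Fmod, Ogn and Prg4 from control stayed within 1 SD, pooled within groups, of their values under every alternative run. That is no evidence of robustness. They could not move with dim genes, probe set choice, spread, the arrays compared or joint adjustment, and leaving out 1 array moves a group mean little. None of these differences changed sign except Prg4 in PA against control, at -0.07. It ran from -0.15 to 0.03 on leaving out 1 array and to 0.11 without PA replicates 2 and 4. The number of the 10 genes that passed moved more, and so did the number over all genes. Under alternatives other than leaving out 1 array, all genes passing ran from 8 to 727 between PA and OA (362 in the main fit). They ran from 2 to 63 between PA and SA (27), 3 to 24 between SA and OA (6) and 2 to 79 between PMA and OA (10). Most members that passed were Fmod, Ogn and Prg4, chosen on their values, so the counts are a description only. Between SA and OA 0 of the 10 genes passed. The count was 1 with dim genes left out, with a trended robust spread and without PMA replicates 1 and 4. It was 2 with array weights and with p adjusted over the 6 pairs. Between PA and SA (2) it was 1 with every probe set tested, 5 with a trended robust spread, 0 with only the arrays compared and 0 without PA replicates 2 and 4. Between PA and OA (6) it was 3 with every probe set, 2 with only the arrays compared, 3 without PA replicates 2 and 4 and 4 without PMA replicates 1 and 4. Between PMA and OA (1) it was 0 with every probe set, 2 with array weights and 0 without PMA replicates 1 and 4. For SA against control (2) it was 0 with every probe set and 1 without PMA replicates 1 and 4, for PMA against control (1) 2 with a trended robust spread and 0 without PMA replicates 1 and 4, and for SA against PMA (1) 0 without them. Leaving out 1 array gave 0 to 1 for PA against control (1 without PA replicate 1), 0 to 2 for SA against control, 2 to 3 for OA against control, 1 to 3 between PA and SA, 0 to 1 between PMA and OA and between SA and OA, 2 to 7 between PA and OA, 2 to 3 between PA and PMA and 2 to 3 for the monounsaturated acids. Over all genes it moved the number passing between PA and OA from 53 (without OA replicate 3) to 1541 (without PA replicate 1), and between OA and control from 22 (without OA replicate 3) to 243 (without PA replicate 2). For PMA against control that number ran from 8 (without control replicate 4) to 129 (without PA replicate 2). The causes were not tested.

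Replicate numbers did not pair the samples: over 36 pairs of same-numbered arrays the correlation of deviations ran from -0.43 to 0.40, and 4 of 19 arrays correlated best with their own number. With the replicate block 1 gene passed for SA against control (Prg4) and 4 between PA and OA, without Lum (0.0971) and Prelp (0.106), and Dcn for the monounsaturated acids stood at 0.0654. Cyclic loess shifted the median of all genes by at most -0.05 and split the genes passing in PMA against control into 14 higher and 54 lower in place of 36 and 14, and between PA and PMA into 55 higher and 59 lower in place of 20 and 161.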
